A study of Mus musculus with 20 samples.

Results

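The genes described here are those whose RNA was kept in retina without Crx but lost in retina carrying the CrxRip allele at postnatal day 21 (P21). They were picked by mean FPKM over 2 samples per genotype. Wild type had to be at 3 FPKM or more and Crx-/- above 50% of wild type. CrxRip/+ and CrxRip/Rip each had to be at most 50% of wild type and at most 50% of Crx-/-. Of 1497 genes in the P21 table, 15 met these limits. 5 of them (Pdc, Nr2e3, Samd7, Slc26a2 and Cnga3) were set aside because the rule leaves out, by name, known photoreceptor genes and families of channels, transporters and phototransduction proteins. The other 10 are Pitpnm3, Ebpl, Rrp1b, Mpdz, Plcd3, Ramp3, Plekha2, Card19, Eepd1 and Mlf1. Card19 appears in the table under its earlier symbol 1110007C09Rik.

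Whole retina of mice on the C57BL/6J strain was sequenced at postnatal day 2 (P2) and P21. The genotypes were CrxRip/+ and CrxRip/Rip, which carry 1 or 2 copies of a dominant Crx allele, Crx-/-, Nrl-/-, and wild type. There were 2 samples for each of the 5 genotypes at each age, 20 in all, and each sample pooled 2 retinas. The labels name no further allele, transgene or agent, either for single groups or for all of them. Values are FPKM, fragments divided by transcript length and by mapped fragments, which makes levels of different genes comparable per length. The table of each age holds only genes that passed the authors' own limits for a difference (1497 at P21, 566 at P2, 198 in both), and read depth is unknown. P-values measure only the spread between the 2 pools of retinas of a genotype. That spread was estimated over all 5 genotypes of an age and drawn toward a trend across genes. For 2 samples against 2, the smallest 2-sided p of an exact permutation test is 0.333.

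CrxRip serves as a model of dominant blindness linked to CRX, and it is set here beside Crx-/-, in which CRX is absent. CRX is a homeodomain transcription factor that activates rod and cone genes as photoreceptors mature. NRL, of the basic leucine zipper family, sets the rod fate in photoreceptor precursors and switches on Nr2e3, whose product silences cone genes in rods. Retina without Nrl forms cone-like cells in place of rods.

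The promoters of 3 members are shown because 2 of them hold the core letters that CRX and its relative OTX2 bind, TAATCC, before the gene's reference start, and the third, Ebpl, had the lowest CrxRip/+ level relative to Crx-/- and holds none. Each runs 5′ to 3′ on the gene's own strand from 250 bases before to 50 bases after the start, from RefSeq on GRCm38.p6, and capitals mark TAATCC or its reverse complement. Their positions are chr11:72135840-72136139 on the minus strand for Pitpnm3, chr3:67373847-67374146 on the plus strand for Mlf1 and chr14:61360396-61360695 on the minus strand for Ebpl.
Pitpnm3: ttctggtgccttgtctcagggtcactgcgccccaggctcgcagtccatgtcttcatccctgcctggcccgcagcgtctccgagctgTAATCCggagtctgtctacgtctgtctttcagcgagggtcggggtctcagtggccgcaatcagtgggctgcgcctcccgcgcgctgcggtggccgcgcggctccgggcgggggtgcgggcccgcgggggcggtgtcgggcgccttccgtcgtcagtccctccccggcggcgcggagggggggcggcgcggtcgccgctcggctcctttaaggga
Mlf1: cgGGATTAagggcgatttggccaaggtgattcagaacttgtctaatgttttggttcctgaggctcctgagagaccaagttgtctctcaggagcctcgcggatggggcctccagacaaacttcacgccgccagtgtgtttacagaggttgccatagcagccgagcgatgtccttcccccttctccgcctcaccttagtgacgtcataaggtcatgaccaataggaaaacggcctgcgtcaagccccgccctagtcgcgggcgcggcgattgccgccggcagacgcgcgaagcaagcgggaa
Ebpl: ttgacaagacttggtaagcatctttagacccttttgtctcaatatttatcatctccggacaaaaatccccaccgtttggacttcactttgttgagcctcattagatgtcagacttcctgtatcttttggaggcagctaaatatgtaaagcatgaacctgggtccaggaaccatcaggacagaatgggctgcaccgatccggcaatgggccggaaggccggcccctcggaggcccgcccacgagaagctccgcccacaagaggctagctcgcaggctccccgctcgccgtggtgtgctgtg

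Of the 10 genes, 8 had a promoter in the reference table, and Mpdz and Plekha2 did not. TAATCC was found on either strand in 3 of these 8 genes (37.5%), against 10.9% of 1146 other genes of the P21 table and 8.14% of 27025 genes with a promoter. Counted from the start, the first base of the match is at -164 in Pitpnm3 and at -248 in Mlf1, where it is on the opposite strand. The start used for Pitpnm3 lies 168 bases upstream of the start annotated for the measured transcript, and that for Mlf1 coincides with it. The third match, in Rrp1b, belongs to a second start that lies 12185 bases from the start of the measured transcript, and the promoter nearest to that transcript had none. TGCTGA, the core of sites of the kind that NRL binds, was in 0 of the 8 genes, against 21.8% of the other P21 genes. AGGTCA, the core that nuclear receptors bind, was in 2 of 8 (Card19 and Mlf1), against 16.3%. TAATTA, bound by other homeodomain proteins, was in 0 of 8 against 3.84%, and the E-box CACGTG in 0 of 8 against 10.9%. The 5 motifs were searched in the same way on both strands, and none of them overlaps another in these 8 genes. These are matches of letters in 300 bases, not binding sites. The 9 promoters had a median of 62.3% G and C, against 60.0% for the promoters of the other P21 genes.

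The members are protein-coding and lie on 8 chromosomes, 3 of them (Pitpnm3, Plcd3 and Ramp3) on chromosome 11 and the others 1 each. On chromosome 11 of GRCm38, Ramp3 spans 6658506 to 6677478, Pitpnm3 72047528 to 72135889 and Plcd3 103070296 to 103101710, so they are not neighbours. Ebpl is on chromosome 14 (61339763 to 61360445), Rrp1b on chromosome 17 (32036162 to 32062865), Mpdz on chromosome 4 (81278499 to 81442897) and Plekha2 on chromosome 8 (25039144 to 25104679). Card19 is on chromosome 13 (49202950 to 49216068), Eepd1 on chromosome 9 (25481513 to 25604110) and Mlf1 on chromosome 3 (67374097 to 67400000).

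**Figure D1:**
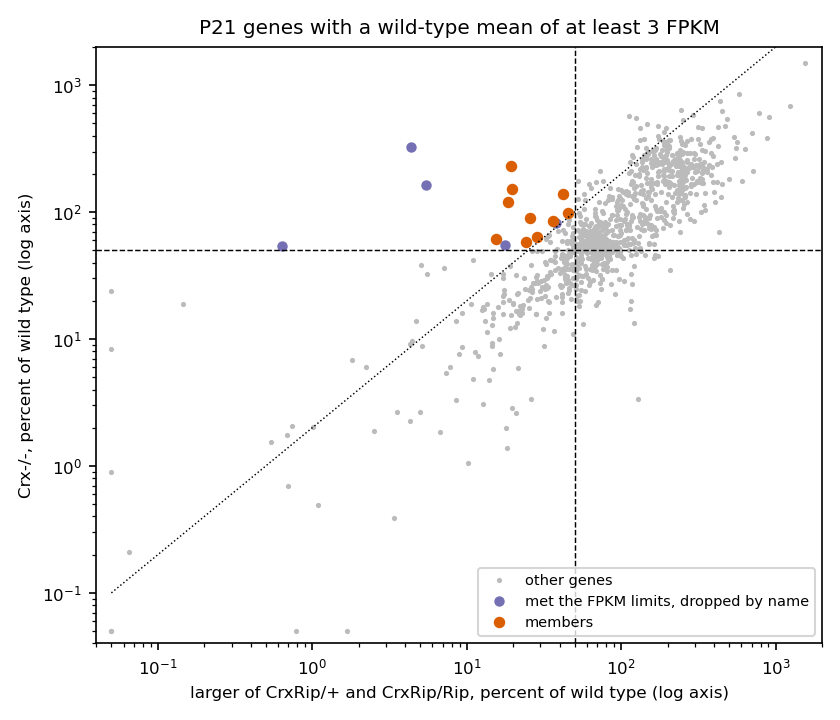
P21 genes with a wild-type mean of at least 3 FPKM, by the level in Crx-/- (vertical) and the larger of the levels in CrxRip/+ and CrxRip/Rip (horizontal), both as percent of the wild-type mean on log axes, with values under 0.05% drawn at 0.05%. Dashed lines mark 50% and the dotted line a CrxRip level that is 50% of Crx-/-. The 10 members (orange) sit at the upper left with the genes dropped by name (purple), left of the 50% line for CrxRip and above the 50% line for Crx-/-.

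Across the 10 genes, CrxRip/+ was at a median of 24.2% of wild type (range 15.6% to 44.0%) and CrxRip/Rip at a median of 17.7% (8.42% to 45.1%), while Crx-/- was at a median of 94.3% (58.4% to 233%). These are the values that chose the genes, so they are described without a test. In all 10, each of the 4 CrxRip samples lay below each Crx-/- and each wild-type sample. In Crx-/-, both samples were above both wild-type samples for Ebpl, Ramp3, Plekha2 and Mlf1, both were below for Pitpnm3, Rrp1b, Plcd3, Card19 and Eepd1, and the groups overlapped for Mpdz. Such separation of Crx-/- from wild type was not counted over all genes, so whether it sets the members apart is unknown.

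3 of the genes encode proteins of families linked to phosphoinositides, a grouping made after the members were known. Pitpnm3 encodes a protein of the phosphatidylinositol transfer family, and variants of human PITPNM3 have been linked to cone-rod dystrophy. It had 8.2 and 10.7 FPKM in CrxRip/+, 5.4 and 8.5 in CrxRip/Rip, 35.5 and 38.4 in Crx-/-, 8.5 and 7.9 in Nrl-/-, and 59.3 and 62.1 in wild type. It was the most abundant member in wild type, and its Crx-/- level stood between those of wild type and the other mutants, at 60.9% of wild type. Plcd3 encodes a delta-type phospholipase C, which cleaves phosphatidylinositol bisphosphate. It had 3.6 and 3.5 FPKM in CrxRip/+, 1.1 and 1.4 in CrxRip/Rip, 12.3 and 12.3 in Crx-/-, 6.4 and 5.6 in Nrl-/-, and 13.4 and 14.1 in wild type. Its genotypes did not overlap at all, and CrxRip/Rip was lowest. Plekha2 encodes an adaptor whose pleckstrin homology domain binds a phosphoinositide. It had 1.4 and 2.1 FPKM in CrxRip/+, 0.7 and 0.9 in CrxRip/Rip, 11.4 and 11.3 in Crx-/-, 0.6 and 0.6 in Nrl-/-, and 9.1 and 9.9 in wild type. It separated Crx-/- from the other mutants widely, with CrxRip/+ at 15.4% and CrxRip/Rip at 7.05% of the Crx-/- level.

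3 more encode membrane proteins or a scaffold at membranes. Ebpl encodes a relative of the sterol isomerase EBP in the endoplasmic reticulum. It had 5.1 and 4.4 FPKM in CrxRip/+, 3.9 and 4.9 in CrxRip/Rip, 61.7 and 52.7 in Crx-/-, 3.3 and 2.4 in Nrl-/-, and 25.7 and 23.4 in wild type. The Crx-/- level was 233% of wild type, the highest of the members, and CrxRip/+ was at 8.30% and CrxRip/Rip at 7.69% of the Crx-/- level. Ramp3 encodes a partner that sets the ligand choice of the calcitonin receptor family. It had 2.3 and 2.3 FPKM in CrxRip/+, 2.4 and 1.7 in CrxRip/Rip, 18.9 and 16.6 in Crx-/-, 4.2 and 3.6 in Nrl-/-, and 12.1 and 11.3 in wild type. Here too Crx-/- was above wild type, at 152% of it. Mpdz encodes a protein with many PDZ domains that gathers membrane proteins at cell junctions. It had 8.7 and 8.2 FPKM in CrxRip/+, 8.6 and 8.7 in CrxRip/Rip, 18.8 and 19.3 in Crx-/-, 7.4 and 8.1 in Nrl-/-, and 19.2 and 19.2 in wild type. Its levels fell into a low and a high set, with Crx-/- in the high one at 99.2% of wild type, and its CrxRip levels were the least reduced of the members.

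The last 4 were placed in neither of these groups. Rrp1b encodes a nucleolar protein related to a yeast factor for ribosomal RNA processing. It had 5.3 and 4.9 FPKM in CrxRip/+, 5.5 and 6.5 in CrxRip/Rip, 13.2 and 13.8 in Crx-/-, 8.6 and 10.2 in Nrl-/-, and 20.8 and 21.5 in wild type. Its Nrl-/- level was nearer to that of Crx-/- than in any other member, at 69.6% of it. Eepd1 encodes a protein with an endonuclease-like domain that acts in DNA repair in human cells. It had 3.3 and 3.3 FPKM in CrxRip/+, 2.5 and 2.1 in CrxRip/Rip, 7.9 and 7.4 in Crx-/-, 3.3 and 3.9 in Nrl-/-, and 9.1 and 9.0 in wild type. Crx-/- was a little below wild type, at 84.5% of it. Card19 encodes a protein with a caspase recruitment domain. It had 2.4 and 2.1 FPKM in CrxRip/+, 1.1 and 2.1 in CrxRip/Rip, 5.6 and 5.2 in Crx-/-, 2.9 and 2.3 in Nrl-/-, and 8.9 and 9.6 in wild type. Of the members it was the least kept in Crx-/-, at 58.4% of wild type. Mlf1 encodes myeloid leukemia factor 1, which shuttles between nucleus and cytoplasm. It had 1.6 and 1.4 FPKM in CrxRip/+, 0.5 and 1.1 in CrxRip/Rip, 5.2 and 4.7 in Crx-/-, 0.4 and 0.4 in Nrl-/-, and 3.2 and 3.9 in wild type. It was the least abundant member in wild type, and at such levels the rounding of FPKM to 1 decimal weighs on each value.

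**Figure D2:**
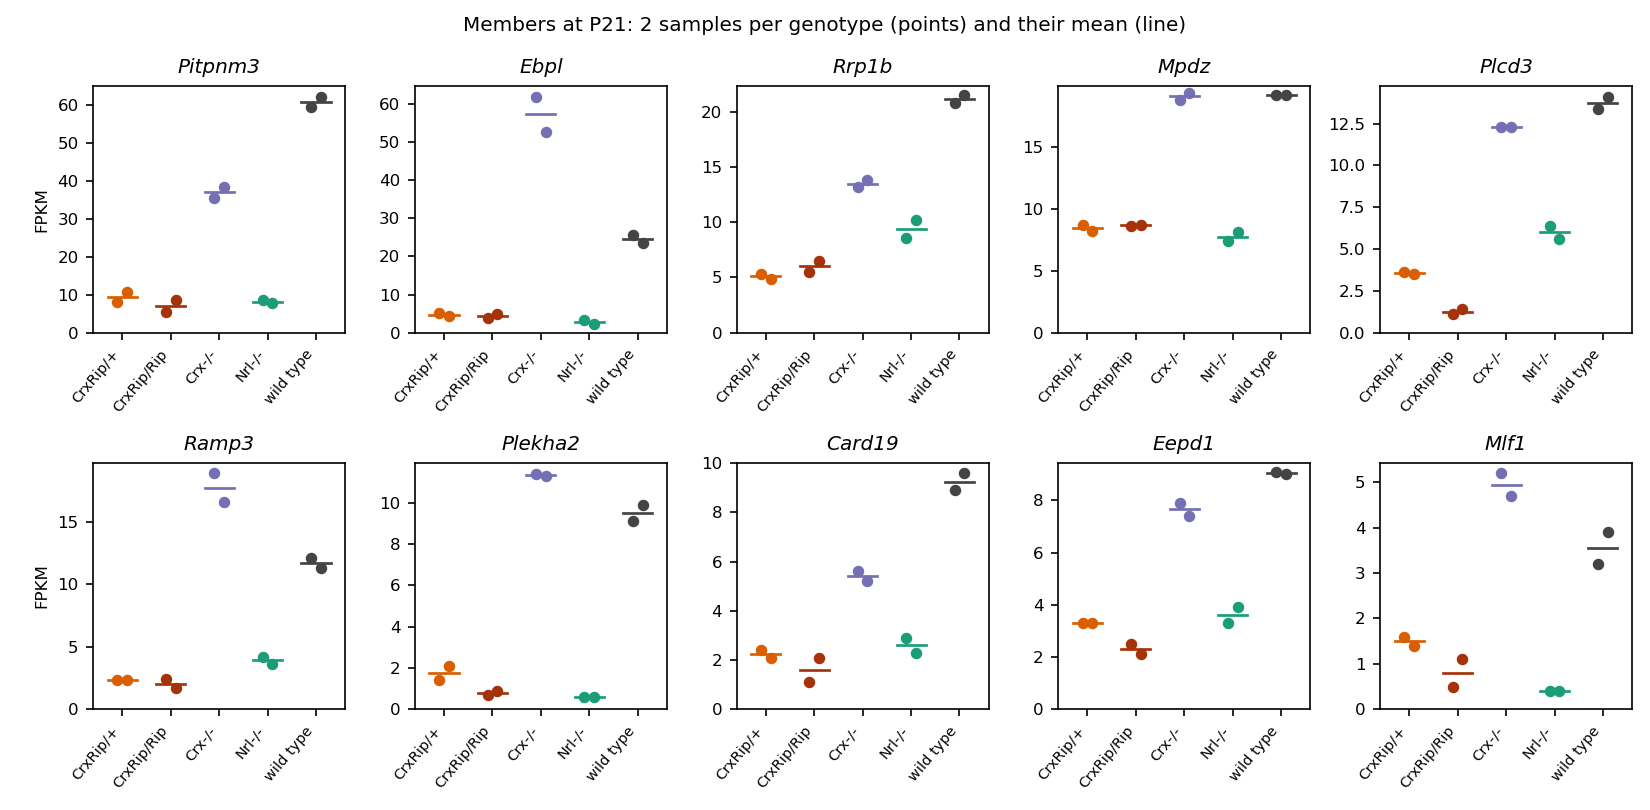
FPKM of each member at P21 in the 2 samples of each genotype (points) and their mean (line), 1 panel per gene, with axes starting at 0. In every panel the CrxRip/+, CrxRip/Rip and Nrl-/- points lie below the Crx-/- and wild-type points.

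CrxRip/Rip was not uniformly lower than CrxRip/+. Both CrxRip/Rip samples were below both CrxRip/+ samples for Plcd3 (35.2% of the CrxRip/+ mean), Plekha2 (45.7%), Mlf1 (53.3%) and Eepd1 (69.7%). They were above for Rrp1b (118%), and the samples overlapped for the other 5. How often these genotypes separate over the whole table was not counted, so this order is not read as particular to the members. Both genotypes entered the rule, so no test was made.

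The authors' own scaling bears on how far the members count as kept. In the authors' deposited table the log2 fold change of Crx-/- against wild type was lower than the log2 ratio of mean FPKM by a nearly constant 0.23. On that scale Card19 was at -1.02 in the authors' deposited table, just under the limit of 50%, and Pitpnm3 and Rrp1b were at -0.94 and -0.89. The authors' deposited table gave 0.97 for Ebpl, 0.37 for Ramp3, 0.27 for Mlf1 and 0.03 for Plekha2, so these 4 were not below wild type on that scale either.

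Around the limits, the members nearest to failing on Crx-/- were Card19, Pitpnm3 (60.9% of wild type) and Rrp1b (63.8%), and the nearest genes outside were Drd4, the dopamine D4 receptor gene, at 42.0%, Glb1l2 at 38.5% and Syne3 at 13.8%. On the CrxRip/+ level the nearest inside was Mpdz at 44.0% of wild type, and Rps19 (52.2%) and Fam107a (52.9%) were just outside. On CrxRip/+ against Crx-/-, Mpdz was at 44.4%, while Gadd45a (51.4%), Marchf1 (52.4%) and Pex5l (52.8%) were just outside. On CrxRip/Rip, Mpdz was again nearest inside (45.1% of wild type and 45.4% of Crx-/-), with Ftl1 outside at 57.4% of wild type and Zfp472 outside at 52.4% of Crx-/-. Mlf1 was the member nearest to the floor of 3 FPKM, with a wild-type mean of 3.55 FPKM.

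Nrl-/- samples had no part in the rule, and all 10 genes were lower in them than in wild type at P21. The fit was limma on log2(FPKM + 1) over all genes of the table with Benjamini-Hochberg adjustment, and calls were made below an adjusted p of 0.05. By this test 10 of 10 members fell and 0 rose, where 31.8% of the 1497 genes fell and 40.4% rose. Over all genes 605 rose and 476 fell, while 510 rose and 556 fell with FPKM rescaled by the median of ratios, which kept all 10 calls. In all 10 both Nrl-/- samples lay below both wild-type samples, as they did in 38.7% of the table. The median difference of the members was -1.44 on the log2(FPKM + 1) scale, against 0.17 over all genes. The wild-type samples were shared with the rule, which favoured genes with high wild-type values, so this comparison is not wholly separate from it.

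Pitpnm3 averaged 8.20 ± 0.42 FPKM in Nrl-/- and 60.7 ± 1.98 in wild type (SD, n = 2 each) and fell by 2.75 (SE 0.185, limma adjusted p = 3.82e-06). Ebpl averaged 2.85 ± 0.64 FPKM in Nrl-/- and 24.6 ± 1.63 in wild type and fell by 2.74 (SE 0.152, limma adjusted p = 1.46e-06). Plekha2 averaged 0.60 ± 0 FPKM in Nrl-/- and 9.50 ± 0.57 in wild type and fell by 2.71 (SE 0.132, limma adjusted p = 7.58e-07). These 3 had the largest falls on the log2(FPKM + 1) scale and were at 13.5%, 11.6% and 6.32% of wild type. Mlf1 averaged 0.40 ± 0 FPKM in Nrl-/- and 3.55 ± 0.49 in wild type, which is 11.3% of it, a difference of -1.70, or -2.86 with 0.1 in place of the added 1. The differences of Card19 and Ramp3 were -1.51 and -1.38. Those of Mpdz, Eepd1, Rrp1b and Plcd3 were -1.21, -1.13, -1.09 and -1.08, which left these 4 at 39.8% to 44.4% of wild type. The largest limma adjusted p of the 10 was 1.00e-04, that of Card19. The authors' deposited table also called all 10 lower, at an adjusted p under 0.05 and a log2 fold change of -1 or less, as it did 18.8% of the table.

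Set against the CrxRip genotypes, the Nrl-/- levels were in the same range but not the same. Both Nrl-/- samples were below all 4 CrxRip samples for Ebpl, Mpdz, Plekha2 and Mlf1, above all 4 for Rrp1b, Plcd3 and Ramp3, and overlapped them for Pitpnm3, Card19 and Eepd1. The share of the whole table in each of these states was not taken, so the split only describes the members. Against Crx-/-, both Nrl-/- samples were below both Crx-/- samples in 10 of 10 members, as in 34.4% of the table. The Crx-/- samples had entered the rule, so this is a description.

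**Figure D3:**
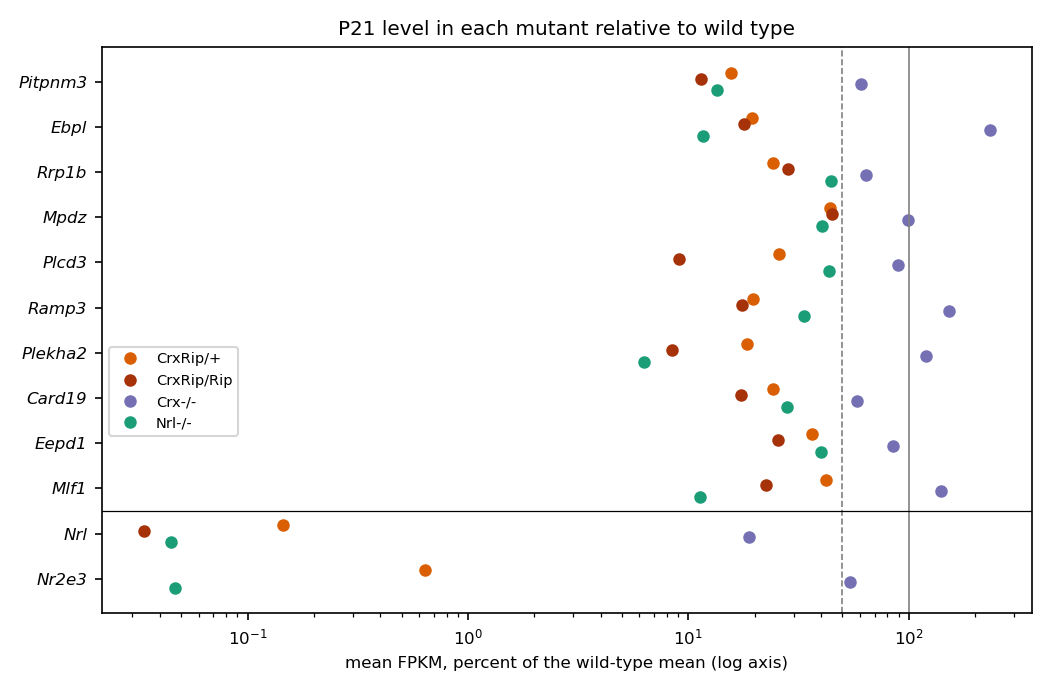
Mean FPKM at P21 of CrxRip/+, CrxRip/Rip, Crx-/- and Nrl-/- as percent of the wild-type mean (log axis), for the members and, under the line, for Nrl and Nr2e3. The dashed line marks 50% and the solid line 100%, and Nr2e3 in CrxRip/Rip is listed at 0 and not drawn. Crx-/- points of the members lie at 58.4% to 233%, and the points of the other 3 mutants lie under 50%.

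Most other genes that were low in both CrxRip genotypes also fell in Nrl-/-. Among 234 genes with both CrxRip genotypes at most 50% of wild type, 195 were also at most 50% in Crx-/-. Of these 195, 175 (89.7%) fell in Nrl-/- and 8 rose, with a median difference of -1.38 in log2(FPKM + 1). A further 24 genes were above 50% in Crx-/- without meeting the other limits, and 22 of them (91.7%) fell, with a smaller median difference of -0.74. Among the remaining 1263 genes, 265 (21.0%) fell, with a median of 0.33. Differences between these classes were not tested. Of the 5 genes dropped by name, Nr2e3 (-7.60), Pdc (-1.27), Samd7 (-1.08) and Slc26a2 (-1.05) fell, and Cnga3, the cone channel subunit, rose by 3.44.

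**Figure D4:**
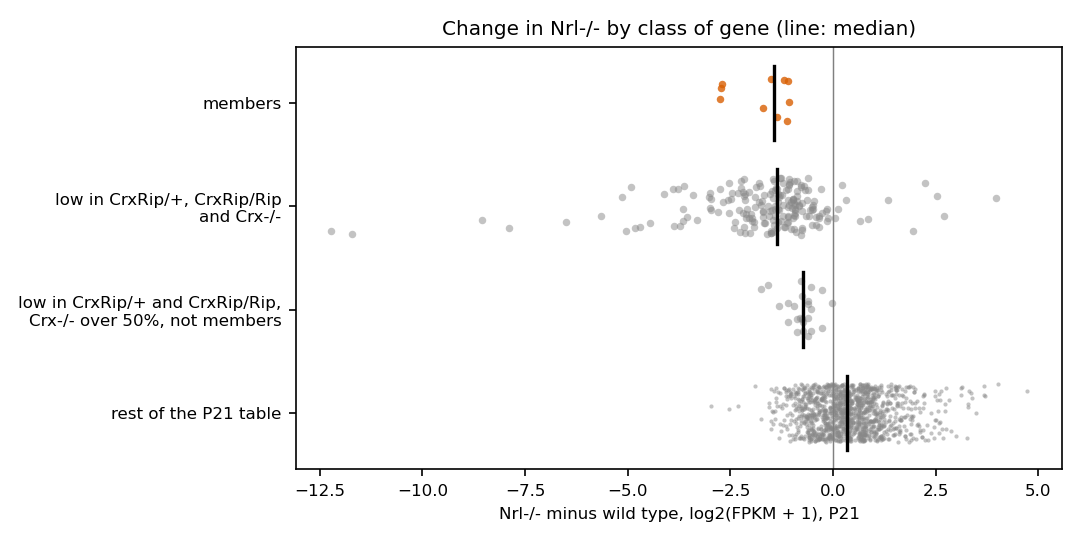
Difference of Nrl-/- minus wild type at P21 in log2(FPKM + 1) for the 10 members, the 195 genes low in CrxRip/+, CrxRip/Rip and Crx-/-, the 24 other genes low in both CrxRip genotypes, and the remaining 1263 genes, with a point per gene and the class median as a line. The 5 genes dropped by name are not drawn. All members lie between -2.75 and -1.08, and their median of -1.44 is close to the -1.38 of the genes that were also low in Crx-/-.

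Nrl and Nr2e3 RNA had their highest mutant level in Crx-/-, at 18.9% and 54.0% of wild type. Nr2e3 met the FPKM limits of the rule, which fixed its order between Crx-/- and the CrxRip genotypes, and Nrl is the gene removed in Nrl-/-. Of other factors, Rorb (79.9% of wild type) and Esrrb (6.89%) were also highest among the mutants in Crx-/-, while Mef2c was lowest there (5.99%). Nrl had 0.9 and 0.4 FPKM in CrxRip/+, 0.1 and 0.2 in CrxRip/Rip, 87.2 and 82.0 in Crx-/-, 0.2 and 0.2 in Nrl-/-, and 466.1 and 427.6 in wild type. Nr2e3 had 1.7 and 1.0 FPKM in CrxRip/+, 0 and 0 in CrxRip/Rip, 118.0 and 110.0 in Crx-/-, 0 and 0.2 in Nrl-/-, and 223.7 and 198.8 in wild type. Crx RNA did not separate the genotypes in this way, with means of 293 FPKM for CrxRip/+, 196 for CrxRip/Rip, 170 for Crx-/-, 321 for Nrl-/- and 347 for wild type. A value for the whole Crx transcript does not show which part of the gene is altered. Otx2, the homeobox gene above Crx in the photoreceptor pathway, had means of 153 FPKM for CrxRip/+, 276 for CrxRip/Rip, 199 for Crx-/- and 117 for Nrl-/-, all above the 80.5 FPKM of wild type. The part of these factors in the levels of the members was not tested.

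The summed rod genes were low in Crx-/- too. In bulk retina, fewer cells of a type and less RNA per cell cannot be told apart. The summed FPKM of 15 rod genes, all in the table, was 834.2 and 929.7 in CrxRip/+, 442.7 and 448.7 in CrxRip/Rip, 1077.5 and 1236.5 in Crx-/-, 1666.3 and 1691.2 in Nrl-/-, and 18107.2 and 19218.6 in wild type. In the same Crx-/- samples the members were at 58.4% to 233% of wild type, 5 of them below both wild-type samples. The 13 cone genes in the table summed to 1104.9 and 1196.7 in CrxRip/+, 494.0 and 579.1 in CrxRip/Rip, 903.6 and 1024.0 in Crx-/-, 6880.7 and 7109.2 in Nrl-/-, and 752.8 and 811.2 in wild type. In Nrl-/- against wild type, 15 of 15 rod genes fell (median -4.46) and 13 of 13 cone genes rose (median 3.37). The members fell there as well, but by less than the rod genes, with a median of -1.44. Of 28 genes that rods and cones share, 20 fell and 3 rose, and of 12 photoreceptor transcription factors 6 fell and 5 rose, with medians of -0.88 and -0.60. Slc24a1, an exchanger gene, is on both the rod and the shared list. None of the 10 members is on any of these lists. Over the lists, 2 transcription factors (Nr2e3 and Samd7), 1 cone gene (Cnga3) and 1 shared gene (Pdc) met the FPKM limits of the rule.

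Sums of pigment epithelium genes and of gliosis and stress genes also differed between genotypes. The 8 of 16 pigment epithelium genes in the table summed to 91.9 to 168.1 FPKM in the mutant samples, against 27.7 and 44.5 in wild type. The 10 of 17 gliosis and stress genes in the table summed to 33.8 to 85.2 FPKM in the mutants, against 21.4 and 21.6 in wild type. In Nrl-/- against wild type 7 of the 8 pigment epithelium genes and 5 of the 10 gliosis genes rose and none fell (limma, medians 1.22 and 0.80, against 0.17 over all genes). No gene of these 2 lists was listed at 0 in both samples of a genotype. Both sums were above wild type in each mutant genotype. The 4 lens crystallin genes summed to 0.2 to 58.3 FPKM over the mutants and to 9.7 and 41.6 in wild type. The 2 CrxRip/Rip samples alone had 0.3 and 58.3 FPKM, so this spread lay between samples of the same genotype. Amacrine and ganglion cell markers are not in the table. The part of other cell types in the levels of the members was not tested.

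At P2, when rods are still being born, 3 of the 10 members are in the table: Ebpl, Pitpnm3 and Plekha2. The other 7 were not analysed at that age. No P2 sample entered the rule, so these comparisons were tested. The 3 members are in the P2 table only because they passed the authors' limits on the same P2 values, so the tests are not free of selection. The 2 ages were scaled separately and were not compared with each other.

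Ebpl had 14.4 and 18.1 FPKM in CrxRip/+ at P2, 9.4 and 9.2 in CrxRip/Rip, 18.8 and 21.7 in Crx-/-, 1.8 and 1.4 in Nrl-/-, and 14.9 and 18.0 in wild type. CrxRip/+ overlapped wild type, CrxRip/Rip lay below it, and Nrl-/- lay far below every other genotype. Pitpnm3 had 11.9 and 13 FPKM in CrxRip/+, 4.2 and 4.9 in CrxRip/Rip, 9.6 and 12.9 in Crx-/-, 1.3 and 1.6 in Nrl-/-, and 13.2 and 15.8 in wild type. Both CrxRip/+ samples were just below the lower wild-type sample, and CrxRip/Rip and then Nrl-/- lay further down. Plekha2 had 4.1 and 4.7 FPKM in CrxRip/+, 3.1 and 3.1 in CrxRip/Rip, 5.0 and 6.0 in Crx-/-, 0.2 and 0.2 in Nrl-/-, and 2.8 and 3.6 in wild type. For this gene CrxRip/Rip lay within the wild-type samples, and CrxRip/+ and Crx-/- lay above them.

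In CrxRip/+ against wild type at P2, 0 of 3 members were called lower and 0 higher by limma, where 12.7% of the 566 genes fell and 3.71% rose. At an unadjusted p under 0.05 there was 1, Plekha2, which was higher by 0.37 (unadjusted p = 0.0147, adjusted p = 0.0792). Ebpl differed by -0.02 (adjusted p = 0.971) and Pitpnm3 by -0.20 (adjusted p = 0.490). In CrxRip/+ against Crx-/- again 0 of 3 were called lower and 0 higher by limma, where 12.5% of the table fell and 16.1% rose, and 0 of 3 had an unadjusted p under 0.05. Over all genes 91 rose and 71 fell, but 41 rose and 84 fell when FPKM were rescaled by the median of ratios. The differences were -0.31 for Ebpl, 0.15 for Pitpnm3 and -0.27 for Plekha2 (SE 0.147, 0.153 and 0.118). In the same comparison 9 of 10 cone genes and 3 of 9 rod genes fell, with medians of -1.28 and -0.29 against 0.09 for all genes.

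In CrxRip/Rip at P2, all 3 members were lower than in Crx-/-, where 23.1% of the table fell and 18.2% rose. Pitpnm3 fell by 1.13 (limma adjusted p = 6.72e-04). Ebpl fell by 1.04 (limma adjusted p = 8.57e-04) and Plekha2 by 0.66 (limma adjusted p = 0.00317). The median was -1.04, against 0.06 over all genes. Against wild type 2 of 3 fell, where 21.2% of the table fell and 5.83% rose. Pitpnm3 averaged 4.55 ± 0.49 FPKM in CrxRip/Rip and 14.5 ± 1.84 in wild type (SD, n = 2 each) and fell by 1.48 (limma adjusted p = 1.21e-04). Ebpl averaged 9.30 ± 0.14 FPKM in CrxRip/Rip and 16.4 ± 2.19 in wild type and fell by 0.75 (limma adjusted p = 0.00441). Plekha2 differed by -0.03 (adjusted p = 0.914). Against CrxRip/+, Pitpnm3 fell by 1.28 (limma adjusted p = 0.00117), where 11.3% of the table fell and 2.83% rose. Ebpl fell by 0.74 (adjusted p = 0.0123), while Plekha2 differed by -0.40 without a call (adjusted p = 0.0662). The call for Ebpl was lost without CrxRip/+ replicate 2 (adjusted p = 0.0803) and with only these 2 genotypes fitted (0.0805).

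Crx-/- at P2 had 1 called member of 3, Plekha2, which averaged 5.5 ± 0.71 FPKM in Crx-/- and 3.2 ± 0.57 in wild type and rose by 0.63 (limma adjusted p = 0.00661), where 9.19% of the table rose and 20.7% fell. Over all genes 52 rose and 117 fell, but 86 rose and 57 fell after rescaling, which kept the call of Plekha2. Without Crx-/- replicate 2 its adjusted p was 0.0554. Ebpl differed by 0.29 and Pitpnm3 by -0.35 (adjusted p = 0.158 and 0.113).

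All 3 members fell in Nrl-/- at P2, where 64.7% of the table fell and 18.9% rose. Plekha2 met the authors' limits at P2 only in comparisons with Nrl-/-, so its presence in the P2 table favoured this fall. The differences were -2.75 for Ebpl, -2.66 for Pitpnm3 and -1.80 for Plekha2 (limma adjusted p of at most 1.03e-05), with a median of -2.66 against -0.76 over all genes. Over all genes 107 rose and 366 fell, but 188 rose and 96 fell after rescaling, which left all 3 members called lower with a median of -1.89. With 0.1 in place of the added 1 the difference of Plekha2 was -3.45. Ebpl was at 9.73%, Pitpnm3 at 10% and Plekha2 at 6.25% of wild type. Nrl RNA at P2 was 63.0 and 73.1 FPKM in CrxRip/+, 36.5 and 43.2 in CrxRip/Rip, 73.0 and 81.6 in Crx-/-, 0.1 and 0.1 in Nrl-/-, and 69.4 and 81.0 in wild type. Nrl RNA was thus below wild type in CrxRip/Rip and, by genotype, in Nrl-/-. Ebpl and Pitpnm3 fell against wild type in both of these, while Plekha2 fell in Nrl-/- but was at 96.9% of wild type in CrxRip/Rip. The part of Nrl in the levels of the members was not tested.

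**Figure D5:**
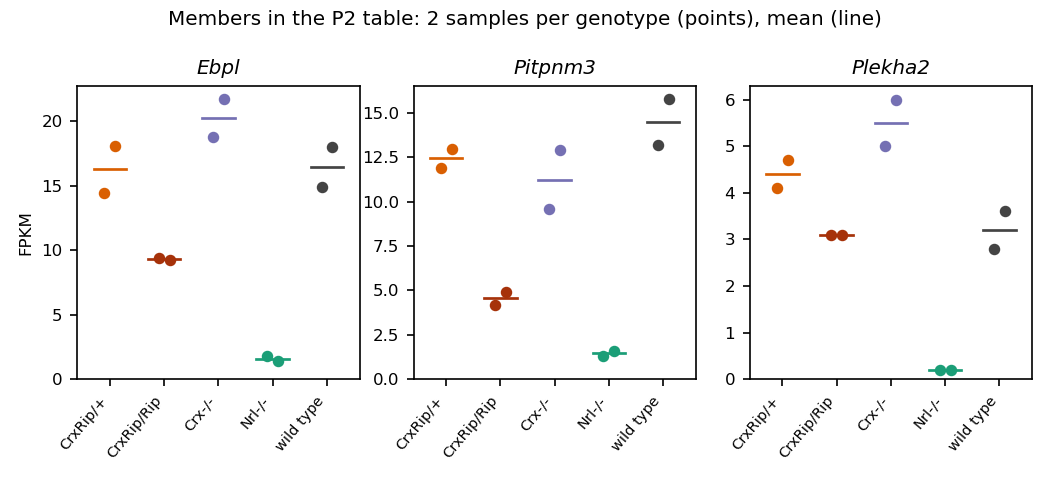
FPKM at P2 of the 3 members in the P2 table, in the 2 samples of each genotype (points) with their mean (line), on axes starting at 0. Nrl-/- is lowest in each panel, CrxRip/Rip lies below CrxRip/+ in each, and the CrxRip/+ samples reach the wild-type level or above it for Ebpl and Plekha2.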

How the data were processed

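Values were taken from 2 deposited tables, 1 per age. Per the file headers the sample columns are FPKM, which the authors rounded to 1 decimal. The same tables hold the authors' adjusted p-values and the authors' log2 fold changes, used only where named. Per the submitters' processing notes the authors used DESeq. The aligner, the counter, the genome build and the annotation were not given in the sources used here. Depth is unknown and no counting interval was made.

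Samples were grouped by title. All genes of a table entered limma (version 3.58.1, R 4.3.3) on log2(FPKM + 1), with 1 term per genotype, a variance trend and no filter on low values, and p was adjusted by Benjamini-Hochberg over the table. The code was tested on simulated data. Residual degrees of freedom were 5, and the prior that limma drew from all genes added 3.06 at P21 and 2.95 at P2. Transcript IDs were matched to RefSeq symbols and GRCm38 positions for 1485 of 1497 genes at P21.

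The members and the gene lists were chosen with earlier results of these data known. The rule for named genes took in all 10 members. It used the highest wild-type mean, widest separation from Crx-/-, largest change in Nrl-/-, presence at P2, and the 3 genes nearest to each limit. Over all genes, differences between replicates 1 and 2 correlated weakly between genotypes, from -0.30 to 0.33. At P2, however, Pitpnm3 and the summed genes that rods and cones share were higher in replicate 2 in all 5 genotypes. Genes of other cell types were summed over hand-written marker lists. Pseudocounts, a filter, scaling, the samples fitted, the variance trend, the replicate block and single replicates were varied. Some items are not reported here.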

Additional observations from a re-analysis of the deposited data

Results flagged for a closer look

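Plekha2 moved in opposite directions against wild type at the 2 ages in CrxRip/+. At P2 both CrxRip/+ samples (4.1 and 4.7 FPKM) were above both wild-type samples (2.8 and 3.6 FPKM), a difference of 0.37 on the log2(FPKM + 1) scale that was not called (limma adjusted p = 0.0792). At P21 both CrxRip/+ samples (1.4 and 2.1 FPKM) were below both wild-type samples (9.1 and 9.9 FPKM), a difference that the choice of the gene fixed. The difference between the ages was not tested.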

How the results depend on the processing

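At P21 the 10 falls in Nrl-/- kept their calls under every alternative run (pseudocount, filter, samples fitted, variance trend, scaling, replicate block, each replicate left out). Rescaling by the median of ratios shifted all genes by -0.23 on the log2 scale in Nrl-/- against wild type at P21. At P2 the shift was 1.06 in Nrl-/- (284 calls over all genes, 473 without rescaling), 0.19 in Crx-/- and 0.13 in CrxRip/Rip, each against wild type, and -0.12 in CrxRip/+ against Crx-/-. In place of 10, the rule gave 6 genes with a fold limit of 0.4 (5 of the members, and Drd4), 22 with 0.6 (9 members, without Card19), 6 with a floor of 10 FPKM (all members) and 13 with rescaled FPKM (8 members, without Mpdz and Rrp1b). In all, 329 of 341 values of single members kept direction and call, 6 reversed, 3 lost their call and 3 gained one, all of these at P2. Reversed were small P2 differences: with rescaling Ebpl was at 0.0448 in CrxRip/+ against wild type and Plekha2 at 0.0685 in CrxRip/Rip against wild type, and with single replicates left out these spanned -0.17 to 0.14 and -0.17 to 0.11, and Pitpnm3 in CrxRip/+ against Crx-/- spanned -0.0487 to 0.3423.

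Left-out replicates gave 55 to 74 calls over all genes for CrxRip/+ against wild type at P2 (93 with all, 55 without wild-type replicate 2), 72 to 92 for Crx-/- against wild type (169) and 78 to 93 for CrxRip/+ against Crx-/- (162), low without any 1 of the 4 libraries in both, 136 to 235 for CrxRip/Rip against Crx-/- (234, and 136 without Crx-/- replicate 2) and 51 to 75 for CrxRip/Rip against CrxRip/+ (80, and 51 without CrxRip/+ replicate 2). Members called were 0 to 1 higher for Crx-/- against wild type and 1 to 2 lower for CrxRip/Rip against CrxRip/+. Fitting only the 2 genotypes gave 133 calls for CrxRip/Rip against Crx-/- and 43 for CrxRip/Rip against CrxRip/+, with 1 member lower in the second. Replicate differences correlated weakly between genotypes over all genes (from -0.30 to 0.33), but at P2 Pitpnm3 was higher in replicate 2 in all 5 genotypes. With the replicate block, Plekha2 was called higher in CrxRip/+ against wild type (limma adjusted p = 0.0395) and lower in CrxRip/Rip against CrxRip/+ (0.0334). Pitpnm3 was called lower in Crx-/- against wild type with this block (0.0232). The cause of these changes was not tested. Depth is unknown, so no limit of detection can be given for members near 1 FPKM.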
